A study of Mus musculus with 32 samples.

Results

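Transcripts of 8 genes of the dystrophin-glycoprotein complex (Dmd, Utrn, Dag1, Sgca, Sgcb, Sgcd, Sspn and Dtna) were followed across 32 libraries of mouse quadriceps muscle. They were picked by gene name from the 53801 gene IDs of the deposited tables, where each name matched 1 gene ID, and values were summed per gene ID. Levels are in TPM, an abundance that the authors scaled for transcript length and for the total of each library. All 8 genes reached 1 TPM in 32 of 32 libraries and were therefore among the 12817 genes tested. Animals of 2 genotypes were used, wild type (WT) and homozygotes of the inherited allele Col6a2 tm1(KOMP)Vlcg (Col6a2-/-), which is not restricted to muscle. Collagen VI, whose α2 chain Col6a2 encodes, forms microfibrils in the matrix around muscle fibres, and the title of the series asks how it bears on the availability of TGFβ. The allele came from a C57BL/6N resource strain and was crossed for 5 generations to C57BL/6J, so DNA near it may still differ between the genotypes, which were bred from heterozygous parents. Mice were untreated, 5 or 25 weeks old, and female or male, giving 8 groups of 4 mice with 1 library each. Whole snap-frozen muscle was cryosectioned for RNA, so other cells of the tissue are included, and fewer cells of a type cannot be told apart from less RNA per cell.

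The complex ties the cytoskeleton of the muscle fibre to the basement membrane. Dystrophin binds actin inside the fibre and β-dystroglycan at the membrane, α-dystroglycan binds laminin outside, and the sarcoglycans and sarcospan brace the dystroglycans within the membrane. Dystrobrevin and the syntrophins form its cytoplasmic arm, and utrophin is a homologue of dystrophin that is enriched at the neuromuscular junction and in immature fibres. Loss of dystrophin or of a sarcoglycan causes muscular dystrophy, and defects of collagen VI cause other muscle disorders.

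RefSeq promoters (assembly GRCm38.p6) were matched by symbol for 7 of the 8 members, in 10 windows. The 3 windows that end exactly where the gene starts in the deposited tables are shown, to set a gene whose level did not pass the test with age (Dmd) beside a gene that fell (Dag1) and the most abundant member (Sgca). Each is the 250 bases upstream of the start, 5′ to 3′ on the strand of the gene. Capitals mark an E-box (CANNTG), a CArG box, a MEF2 site or a GC box (GGGCGG or CCGCCC). Both strands were searched, and no marked motif overlaps another.
Dmd, chrX:82948620-82948869, plus strand: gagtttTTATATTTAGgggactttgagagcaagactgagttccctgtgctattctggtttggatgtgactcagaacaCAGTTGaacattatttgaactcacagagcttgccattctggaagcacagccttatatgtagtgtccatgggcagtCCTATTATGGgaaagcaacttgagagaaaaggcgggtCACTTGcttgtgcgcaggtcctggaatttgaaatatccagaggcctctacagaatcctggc
Dag1, chr9:108263959-108264208, minus strand: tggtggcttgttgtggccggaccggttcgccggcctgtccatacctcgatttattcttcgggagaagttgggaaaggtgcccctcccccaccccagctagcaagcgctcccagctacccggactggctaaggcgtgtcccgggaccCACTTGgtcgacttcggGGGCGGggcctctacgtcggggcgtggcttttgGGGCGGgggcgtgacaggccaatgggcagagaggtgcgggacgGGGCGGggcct
Sgca, chr11:94976328-94976577, minus strand: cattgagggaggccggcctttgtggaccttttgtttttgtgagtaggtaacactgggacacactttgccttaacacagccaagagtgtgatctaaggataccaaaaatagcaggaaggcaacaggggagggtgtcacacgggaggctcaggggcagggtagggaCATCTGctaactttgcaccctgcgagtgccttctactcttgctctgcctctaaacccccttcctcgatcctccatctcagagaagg
The Dmd window holds 2 E-boxes, 1 CArG box and 1 MEF2 site, which are motifs known from muscle promoters, and 0 GC boxes, with a GC content of 45.2%. The Dag1 window has 3 GC boxes and 1 E-box at a GC content of 67.6%. The Sgca window has 1 E-box at 52.8%. Among 32851 RefSeq windows of this length, 66.2% held an E-box, 1.47% a CArG box, 2.92% a MEF2 site and 32.7% a GC box. The matches describe letters and not binding in these samples.

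Col6a2 (chromosome 10, 76595762 to 76623630, GRCm38) checked the labels, with 6.60 to 51.2 TPM in the 16 WT libraries and at most 0.171 TPM in the 16 Col6a2-/- libraries. The fibre genes Acta1, Ckm, Myh4, Tnnt3, Pvalb and Ttn were at 448 TPM or more in every library, as a muscle label requires. Depth, inferred from the ratio of coverage to FPKM and used only as a relative measure, was 6.78 to 13.7 gigabases. Mitochondrial genes held 31.9% to 46.9% of TPM and Rn7s genes 20.8% to 30.5%. Replicate 2 of the 5-week Col6a2-/- females, called KF2 from here on, stood apart, since all 8 members were highest there among the 4 mice of its group, and for comparisons with 5-week Col6a2-/- mice the members called, and the counts of the 4 partner lists that changed, are also given without it.

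Sgca (α-sarcoglycan, ENSMUSG00000001508, chromosome 11, 94962791 to 94976327) was the most abundant member, at 40.2 ± 4.67 TPM over the 32 libraries (SD). Dag1 (dystroglycan, ENSMUSG00000039952, chromosome 9, 108204634 to 108263958) had 28.5 ± 7.19 TPM, Dmd (dystrophin, ENSMUSG00000045103, chromosome X, 82948870 to 85206141) 27.8 ± 3.78 and Dtna (α-dystrobrevin, ENSMUSG00000024302, chromosome 18, 23415135 to 23659715) 27.1 ± 4.56. Sgcd (δ-sarcoglycan, ENSMUSG00000020354, chromosome 11, 46896253 to 47988969) had 23.4 ± 4.10 TPM and Sgcb (β-sarcoglycan, ENSMUSG00000029156, chromosome 5, 73632749 to 73647790) 16.1 ± 4.10. Sspn (sarcospan, ENSMUSG00000030255, chromosome 6, 145931641 to 145965223) had 13.0 ± 3.71 TPM and Utrn (utrophin, ENSMUSG00000019820, chromosome 10, 12382188 to 12869365) 11.3 ± 3.09. Sgca exceeded Dag1 in 31 of 32 libraries, Dtna exceeded Sgcd in 26, Sgcd exceeded Sgcb in 31 and Sgcb exceeded Sspn in 32. Dag1, Dmd and Dtna did not separate, Dag1 being above Dmd in 15 of 32 libraries and Dmd above Dtna in 17, and Sspn was above Utrn in 22. This order is that of TPM, and deposited coverage per inferred depth gave another. Its means in the 8 WT mice of 5 weeks were 28.3 for Sgca, 17.3 for Dag1, 14.3 for Sgcb and 2.11 for Sspn. Utrn had 1.27 there, Dtna 0.994, Dmd 0.788 and Sgcd 0.269. The steadiest members were Sgca, whose highest group mean was 1.27 times its lowest, Dmd at 1.28 times and Sgcd at 1.36 times. Dtna spanned 1.60 times, Dag1 1.73, Utrn 1.78, Sgcb 1.80 and Sspn 1.84. Small genes inside Dmd (Gm22580 and Gm14769) and Utrn (Gm23044), and Gm47898 opposite Dtna, also reached 1 TPM in some library, and whether counting used the strand is not given in the sources used here.

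**Figure D1:**
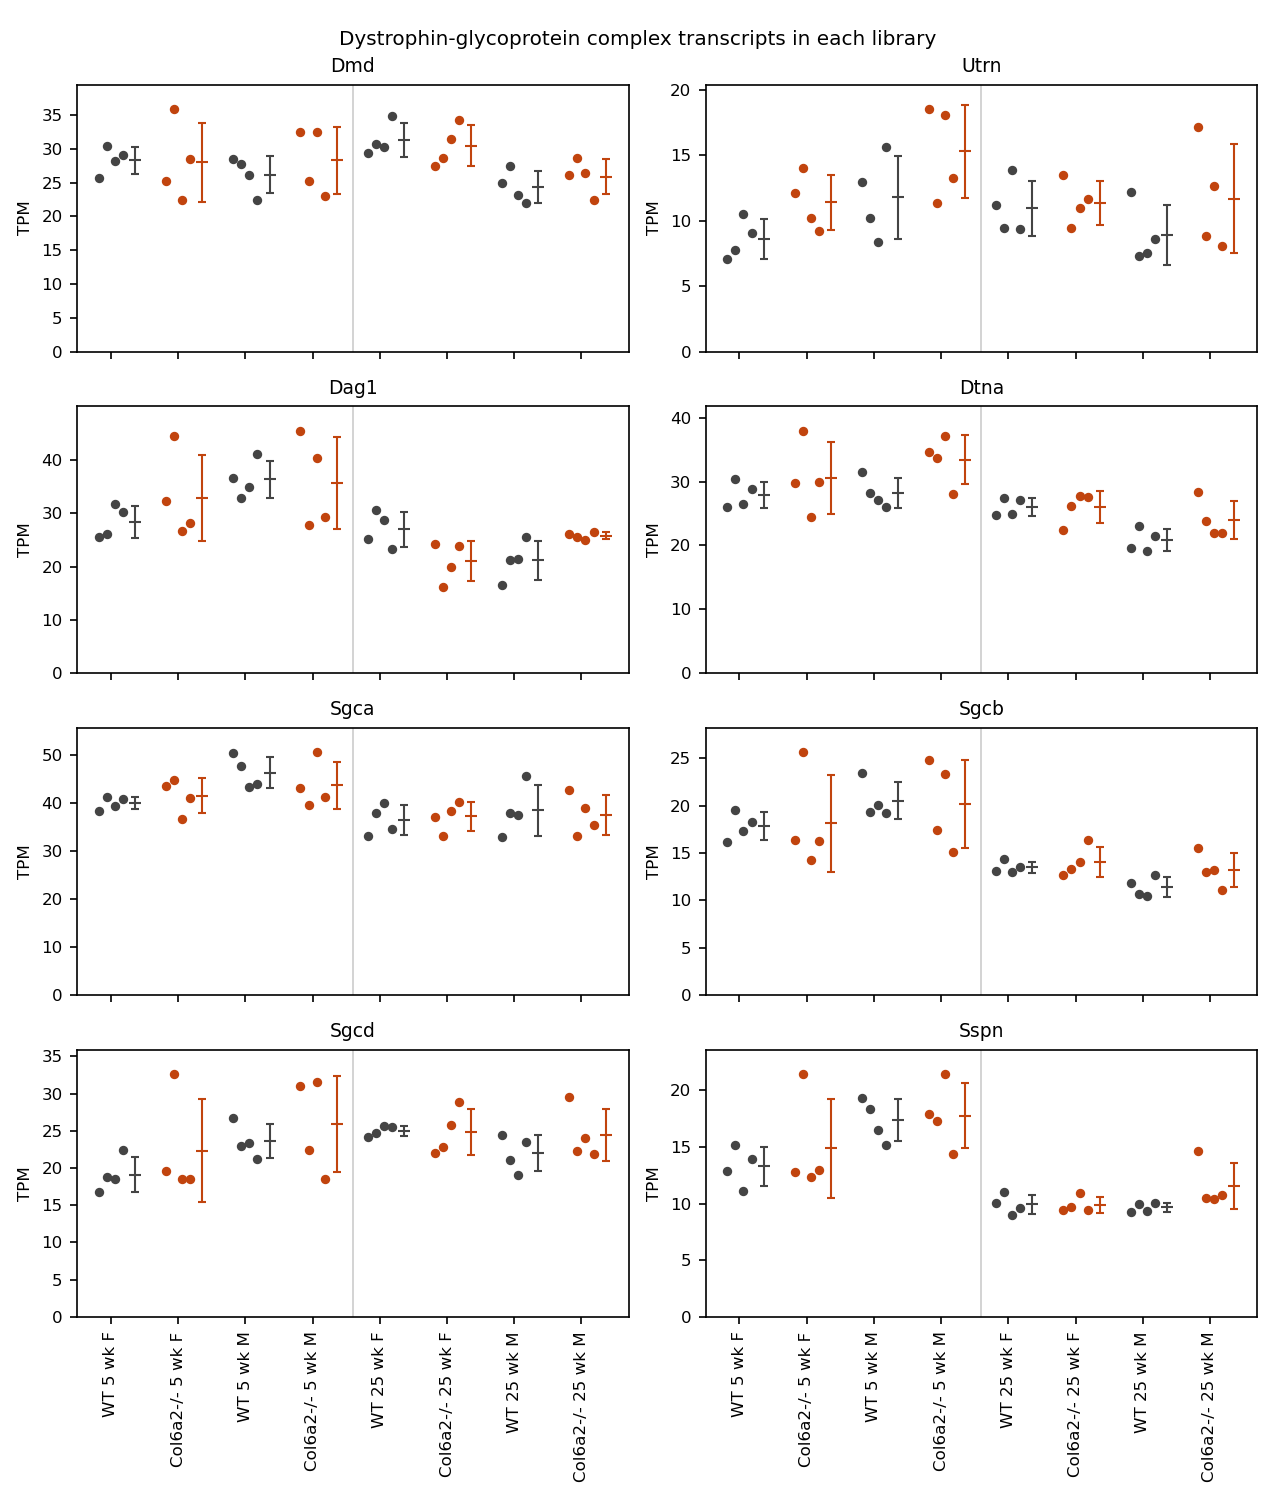
TPM of the 8 members in the 8 groups, with 1 point per library and the mean with its SD (n = 4) beside the points, WT in grey and Col6a2-/- in orange. Sgcb and Sspn are lower at 25 weeks than at 5 weeks in both genotypes, the group means of Dmd lie between 24.4 and 31.3 TPM, and replicate 2 of the 5-week Col6a2-/- females (the second point) is the highest of its group in every panel.

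From 5 to 25 weeks the transcripts of dystroglycan, β-sarcoglycan, sarcospan and α-dystrobrevin fell in both genotypes, to between 0.666 (Sgcb) and 0.837 (Dtna) of the 5-week level in WT on the log2(TPM + 1) scale. Dmd, Utrn, Sgca and Sgcd did not pass the test in either genotype. All changes here are differences of log2(TPM + 1) fitted with limma over the 12817 genes, two-sided, with sexes weighted equally, the standard error (SE) and the Benjamini-Hochberg adjusted p, and a gene is called where that p is under 0.05. In WT, 4 of 8 members were called, all lower, against 19.8% of all tested genes called and 15.3% called lower. In Col6a2-/-, the same 4 were called, all lower, against 34.2% of all genes called and 28.8% called lower. The median change of the 8 members was -0.23 in WT and -0.27 in Col6a2-/-, beside -0.08 and -0.14 for all tested genes. Without KF2, the 4 members were again called lower in Col6a2-/- (27.3% of all genes called), at -0.44 for Dag1, -0.35 for Sgcb, -0.46 for Sspn and -0.28 for Dtna. In that fit Sgca was called lower in WT as well. Of all tested genes, 2.3% were lower at 25 weeks in WT without overlap of the ages, and 1.88% in Col6a2-/-.

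Sgcb, a core subunit of the sarcoglycan complex, ran from 16.1 through a median of 19.3 to 23.4 TPM in the 8 WT mice at 5 weeks and from 10.4 through a median of 12.8 to 14.3 at 25 weeks. These ages did not overlap, and the difference was -0.59 (SE 0.102, limma adjusted p 0.000137). In Col6a2-/- mice Sgcb ran from 14.2 through a median of 16.9 to 25.6 TPM at 5 weeks and from 11.1 through a median of 13.3 to 16.3 at 25 weeks. Those ranges overlapped, although all 8 older mice lay below the mean of the younger mice of their sex, and the difference was -0.44 (SE 0.102, limma adjusted p 0.00156). Sspn, a small membrane protein bound to the sarcoglycans, ran from 11.1 through a median of 15.2 to 19.3 TPM in young WT mice and from 9.02 through a median of 9.77 to 11.0 in older ones. There was no overlap in WT, with a difference of -0.58 (SE 0.0975, limma adjusted p 9.05e-05). In Col6a2-/- mice Sspn ran from 12.3 through a median of 15.9 to 21.4 TPM and then from 9.42 through a median of 10.4 to 14.6. All 8 older mice were below the younger mean of their sex, the overlap came from replicate 1 of the 25-week males at 14.6 TPM, and the difference was -0.55 (SE 0.0975, limma adjusted p 9.08e-05).

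Dag1, whose one product is cut into both dystroglycans, ran from 25.6 through a median of 32.2 to 41.0 TPM at 5 weeks and from 16.6 through a median of 24.2 to 30.5 at 25 weeks in WT. In WT 6 of 8 older mice were below the younger mean of their sex, and the difference was -0.42 (SE 0.112, limma adjusted p 0.00865). In Col6a2-/- mice it ran from 26.6 through a median of 30.7 to 45.4 TPM and then from 16.2 through a median of 24.6 to 26.5. The ages did not overlap there, by a margin small beside their spread, and the difference was -0.52 (SE 0.112, limma adjusted p 0.000772). Dtna, which binds dystrophin and the syntrophins, had 26.0 to 31.4 TPM in young and 19.1 to 27.4 TPM in older WT mice, a difference of -0.26 (SE 0.0802, limma adjusted p 0.0227). Its Col6a2-/- values were 24.5 to 38.0 and 22.0 to 28.3 TPM, and the difference was -0.34 (SE 0.0802, limma adjusted p 0.00187). The ages overlapped in both genotypes, with all 8 older mice of each below the younger mean of their sex. The WT call for Dtna was lost without replicate 1 of the 5-week WT males (-0.23, limma adjusted p 0.0566) and without replicate 3 of the 25-week WT males (-0.24, limma adjusted p 0.0515).

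Sgca, the sarcoglycan specific to striated muscle, had values just short of the threshold in both genotypes, which depended on scaling. WT mice had 38.4 to 50.4 TPM at 5 weeks and 32.9 to 45.7 at 25 weeks, a difference of -0.20 (SE 0.0731, limma adjusted p 0.0501). Col6a2-/- mice had 36.7 to 50.6 and 33.2 to 42.7 TPM, a difference of -0.18 (SE 0.0731, limma adjusted p 0.0534), and all 8 older mice of each genotype were below the younger mean of their sex. In WT the difference shrank to -0.068 (limma adjusted p 0.619) with mitochondrial and Rn7s genes left out of the total, and Sgca was called under 7 of 16 alternative settings, left-out libraries aside. In Col6a2-/- it shrank to -0.0044 (limma adjusted p 0.960) with a length and GC trend removed, and it was called under 0 of 16. Dmd, with 22.4 to 30.3 TPM in young and 21.9 to 34.9 in older WT mice, differed by 0.02 with a 95% interval of -0.16 to 0.20, and in Col6a2-/- by 0.01 (-0.17 to 0.19). Utrn differed by -0.02 (-0.32 to 0.27) in WT and -0.19 (-0.49 to 0.10) in Col6a2-/-, intervals that reach past the fall of Dtna. Sgcd, another core sarcoglycan, differed by 0.14 (-0.09 to 0.37) in WT and 0.06 (-0.17 to 0.29) in Col6a2-/-. For the difference between the genotypes in the age change, limma called 0 of 8 members against 0.492% of all genes, with 0 members at an unadjusted p under 0.05 (also 0 and 0 without KF2), and the widest interval was that of Utrn, -0.59 to 0.25.

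The age results moved with the scaling of the libraries. Of the genes called with age in WT, 22.6% were higher with TPM as deposited and 46.7% with median-of-ratios scaling, and in Col6a2-/- 15.8% and 47.6%. Sgcb and Sspn were called lower in both genotypes under every scaling tried. Dtna in WT was not called with median-of-ratios scaling (-0.15, limma adjusted p 0.0735), and neither Dtna (-0.12, limma adjusted p 0.364) nor Dag1 (-0.28, limma adjusted p 0.0501) was called there when mitochondrial and Rn7s genes were left out of the total. In Col6a2-/- Dtna was called under 16 of 16 settings, with the value closest to 0 under median-of-ratios scaling (-0.16, limma adjusted p 0.0479). Sgcd was called higher with age under 3 scalings. Median-of-ratios scaling put it at 0.25 in WT and 0.23 in Col6a2-/- (limma adjusted p 0.00563 and 0.00640). Without the 100 most abundant genes in the total it was 0.22 and 0.20 (limma adjusted p 0.0271 and 0.0376), and with quantile normalization 0.20 and 0.19 (0.0324 and 0.0394).

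**Figure D2:**
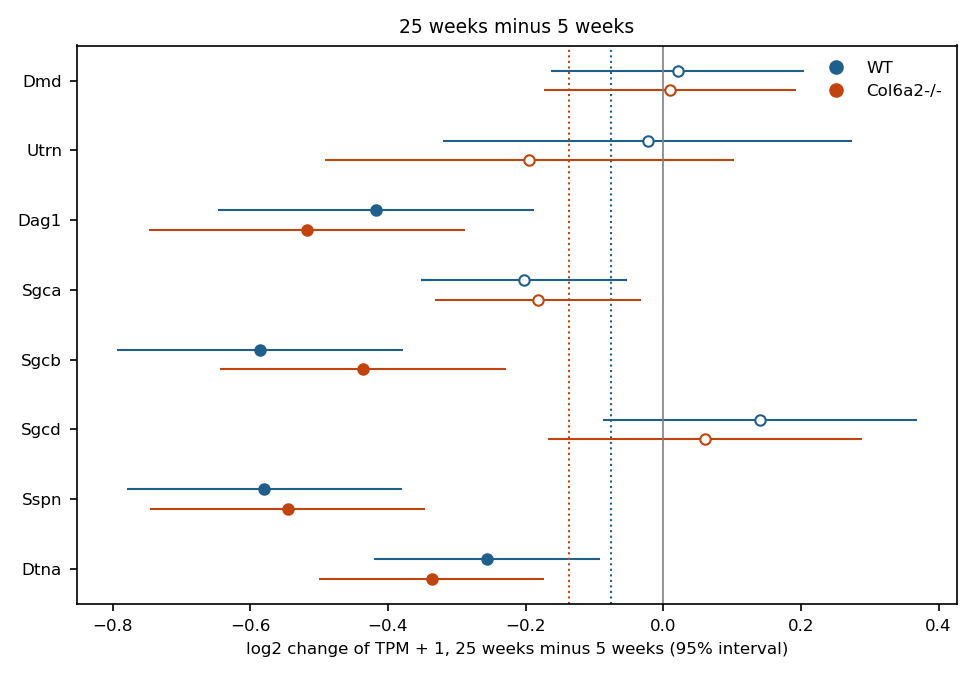
Difference of log2(TPM + 1) between 25 and 5 weeks (x axis) for each member in WT and Col6a2-/-, with 95% intervals, filled points where the gene was called and dotted lines at the median of all tested genes (-0.08 and -0.14). Dag1, Sgcb, Sspn and Dtna are filled and left of 0 in both genotypes, and the intervals of Dmd, Utrn and Sgcd include 0.

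Markers of other cells and fibre states were read with age too, beside 15.3% of all genes called lower in WT and 28.8% in Col6a2-/-. Summed fibre markers had a median of 33543 TPM in young and 27112 TPM in older WT mice, with 2 of 6 called lower in each genotype. Summed fibroblast markers had medians of 550.4 and 327 TPM in WT, again with 2 of 5 called lower in each genotype. Immature-fibre markers fell in 2 of 6 genes in WT and 5 of 6 in Col6a2-/-, where their summed median was 191 TPM at 5 weeks and 103 TPM at 25 weeks. Myh8, at 66.8 TPM or more in every library, weighed most in that sum, and the median log2 change of the 6 genes in Col6a2-/- was -2.35. Neuromuscular-junction markers fell in 2 of 7 genes in WT, where 1 rose, and in 7 of 7 in Col6a2-/-. Macrophage markers fell in 1 of 5 genes in WT and 5 of 5 in Col6a2-/-, Schwann cell markers in 1 of 3 tested and 3 of 3, and endothelial markers in 2 of 5 in each genotype. Smooth muscle markers fell in 0 of 4 and 1 of 4, and of 3 adipocyte markers limma called 0 in either genotype (0 at an unadjusted p under 0.05). Without KF2 the junction markers fell in 6 of 7 genes in Col6a2-/-, smooth muscle markers in 0 of 4, and the other counts in Col6a2-/- stood as given. The part of these in the members' values was not tested.

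With TPM as deposited, all 32 libraries and no replicate block in the fit, no member was called between the genotypes. Median-of-ratios scaling and removal of a length and GC trend called Sgca and Sgcb lower at 5 weeks, and coverage called Utrn higher. At 5 weeks limma called 0 of 8 members between the genotypes, against 25.4% of all tested genes, 2979 of them higher and 274 lower in Col6a2-/-. At an unadjusted p under 0.05 there were 2 members, Utrn and Dtna. The median difference was 0.07 for the members and 0.15 for all genes. Without KF2, 17.9% of 12687 tested genes were called, the median of all genes was 0.09, and limma called 0 of 8 members, with 1 (Utrn) at an unadjusted p under 0.05. At 25 weeks limma called 0 of 8 members against 4.7% of all genes, with 0 at an unadjusted p under 0.05 and medians of 0.08 for both the members and all genes. No member separated the 8 Col6a2-/- mice from the 8 WT mice without overlap, as 1.3% of all tested genes did at 5 weeks and 0.694% at 25 weeks.

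Utrn had the largest value. At 5 weeks it had 7.06, 7.81, 10.5 and 9.09 TPM in WT females and 12.1, 14.03, 10.3 and 9.25 in Col6a2-/- females. In males it had 12.9, 10.2, 8.39 and 15.7 TPM in WT and 18.6, 11.4, 18.1 and 13.3 in Col6a2-/-. Of the Col6a2-/- mice 7 of 8 were above the WT mean of their sex, and the genotypes overlapped in both sexes. The difference was 0.36 with an interval of 0.07 to 0.66 (SE 0.145, limma adjusted p 0.0653), which misses the threshold, and without KF2 it was 0.31 (limma adjusted p 0.147). Over the settings tried on all genes it ran from 0.18, with a length and GC trend removed, to 0.39, with a pseudocount of 0.1, at limma adjusted p from 0.0247 to 0.306. At 25 weeks Utrn ran from 7.34 through a median of 9.41 to 13.9 TPM in WT and from 8.11 through a median of 11.3 to 17.2 in Col6a2-/-. There 5 of 8 were above the WT mean of their sex, with a difference of 0.19 (SE 0.145, limma adjusted p 0.503). That value was 0.095 without replicate 1 of the 25-week Col6a2-/- males and 0.063 with the length and GC trend removed, and Utrn at 25 weeks was called under 0 of 16 settings. Utrn is the only member on chromosome 10, which also holds Col6a2. The part of any DNA carried along with the allele in the values of Utrn was not tested.

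Whether Utrn was called depended on the measure. Its deposited coverage per inferred depth, a scale chosen after the data were seen, averaged 1.27 ± 0.190 in WT and 1.56 ± 0.236 in Col6a2-/- mice at 5 weeks (SD, n = 8), and 1.104 ± 0.218 and 1.35 ± 0.126 at 25 weeks. On a log2 scale with 0.1 added, Utrn was called at 5 weeks (0.28, SE 0.0899, limma adjusted p 0.0247) and not at 25 weeks (0.28, limma adjusted p 0.0584). Without KF2 the 5-week call from coverage was lost (0.24, limma adjusted p 0.0625). The ratio between coverage and FPKM, relative to the depth, varied 1.95-fold between libraries for Utrn and at most 1.22-fold for another member. In TPM, Utrn at 5 weeks was called in 4 of 32 fits that left out 1 library. These lacked replicate 4 of the 5-week WT males (0.43, limma adjusted p 0.0367), replicate 4 of the 5-week Col6a2-/- females (0.41, 0.0357), replicate 2 of the 5-week Col6a2-/- males (0.42, 0.0369) or replicate 1 of the 25-week Col6a2-/- males (0.36, 0.0462).

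Dystrophin and utrophin can fill the same place in the complex, so their ratio within a library was compared too, which needs no scaling between libraries. The log2 ratio of Utrn to Dmd TPM at 5 weeks was -1.46 ± 0.461 in WT and -1.09 ± 0.292 in Col6a2-/- (SD, n = 8), or 0.364 and 0.468 Utrn per Dmd from those means. All 8 Col6a2-/- mice were above the WT mean of their sex. The difference of 0.36 had a two-sided exact permutation p of 0.0339 over 4900 regroupings within sex, and 0.0678 when adjusted over both ages, which misses the threshold. At 25 weeks the ratios were -1.50 ± 0.331 and -1.32 ± 0.380, with a difference of 0.19, an exact permutation p of 0.320 and 5 of 8 above. From coverage, an alternative added later, the differences were 0.32 and 0.27, with adjusted exact permutation p of 0.0171 and 0.0331. Mean coverage per inferred depth at 5 weeks put Utrn above Dmd, at 1.27 and 0.788 in WT and 1.56 and 0.781 in Col6a2-/-. Which of these genes is the more abundant therefore depends on the measure. Without KF2, the 5-week difference was 0.37 in TPM (adjusted exact permutation p 0.0865) and 0.33 from coverage (0.0171). The 5-week ratio in TPM passed the threshold without replicate 4 of the WT males (0.47, adjusted exact permutation p 0.00490) and without replicate 4 of the Col6a2-/- females (0.42, 0.0441).

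**Figure D3:**
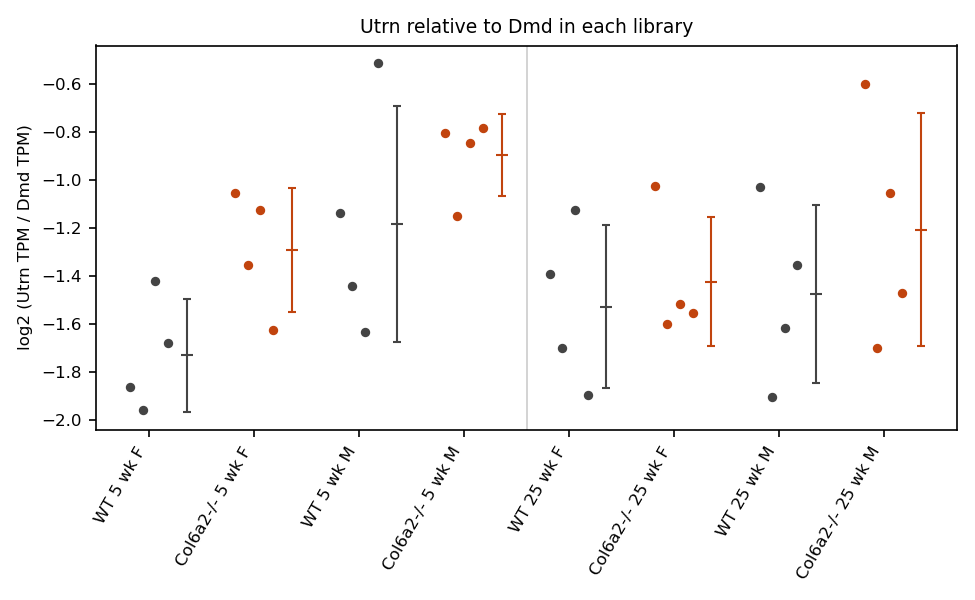
Log2 of the ratio of Utrn to Dmd TPM (y axis) in the 8 groups, with 1 point per library and the mean with its SD (n = 4), WT in grey and Col6a2-/- in orange. At 5 weeks the Col6a2-/- means (-1.29 in females and -0.90 in males) lie above the WT means (-1.73 and -1.18), and single libraries overlap.

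Dtna at 5 weeks had 26.0 to 31.4 TPM in WT and 24.5 to 38.0 in Col6a2-/- mice, with 6 of 8 above the WT mean of their sex and a difference of 0.17 (SE 0.0802, limma adjusted p 0.111). It was called without replicate 3 of the 5-week Col6a2-/- females (0.22, limma adjusted p 0.0393) and without replicate 4 of the 5-week Col6a2-/- males (0.21, 0.0439), and was 0.12 without KF2. Dmd had 22.4 to 30.3 TPM in WT and 22.4 to 35.9 in Col6a2-/-, a difference of 0.03 (-0.15 to 0.22). The sarcoglycans differed by -0.02 (-0.17 to 0.13) for Sgca, -0.03 (-0.24 to 0.18) for Sgcb and 0.14 (-0.09 to 0.37) for Sgcd. Sspn differed by 0.08 (-0.12 to 0.27) and Dag1 by 0.07 (-0.16 to 0.30). At 25 weeks the 8 differences lay between -0.03 (Dag1) and 0.19 (Utrn). Without KF2 no member was called at 5 weeks, and the differences were -0.03 for Dmd, -0.01 for Dag1, -0.04 for Sgca, -0.11 for Sgcb, 0.05 for Sgcd and -0.01 for Sspn.

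The sarcoglycan values at 5 weeks turned on scaling. With TPM as deposited the median of all genes was 0.15 higher in Col6a2-/-, while median-of-ratios scaling put it at 0.0006. On that scale Sgca (-0.21, limma adjusted p 0.0210) and Sgcb (-0.21, 0.00890) were called lower in Col6a2-/-. Of all 12817 tested genes, 1623 were called higher and 1479 lower there. Removal of a trend on transcript length and GC content gave Sgca -0.21 (limma adjusted p 0.00663) and Sgcb -0.17 (0.0212). With it 1442 of 12801 genes were called higher and 1752 lower. Quantile normalization put the median of all genes at -0.025, and leaving the 100 most abundant genes out of the total put it at 0.039. Neither of these scalings called Sgca or Sgcb. Over all 19 alternative settings at 5 weeks, left-out libraries alone aside, Sgca was called under 3 and Sgcb under 4. Without KF2, median-of-ratios scaling gave Sgca -0.16 (limma adjusted p 0.0600), which was not called, and Sgcb -0.23 (0.00654), and the removed trend gave -0.19 (0.0178) and -0.20 (0.0128). In those 2 fits 1345 genes were called higher and 1295 lower of 12687, and 1254 higher and 1567 lower of 12801. Of the genes called at 5 weeks, 91.6% were higher with TPM as deposited and 52.3% with median-of-ratios scaling, and at 25 weeks 95.02% and 58.5%. Dmd, Dag1 and Sspn at 5 weeks were below 0 with median-of-ratios and quantile scaling, without a call.

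**Figure D4:**
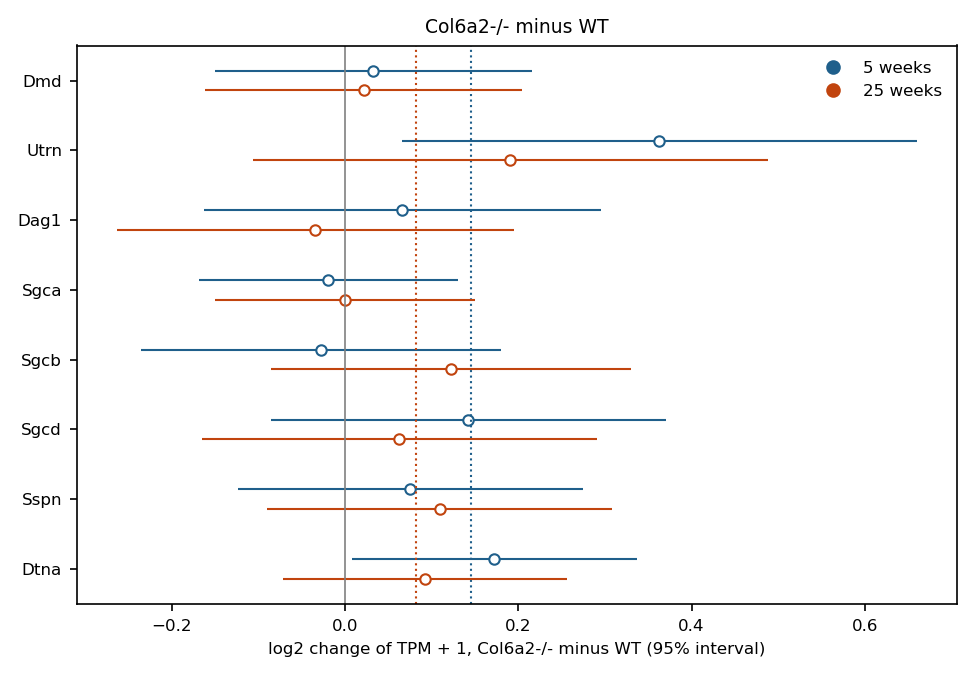
Difference of log2(TPM + 1) between Col6a2-/- and WT (x axis) for each member at 5 and at 25 weeks, with 95% intervals, open points because none was called and dotted lines at the median of all tested genes (0.15 and 0.08). The intervals of Utrn and Dtna at 5 weeks lie right of 0 and the other 14 include it.

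Within a sex limma called 0 of 8 members, against 12.9% of all genes for females and 5.03% for males of 5 weeks. Without KF2, 0 of 8 members and 3.59% of all genes were called in limma for the females. At 25 weeks the shares of all genes were 0.0078% for females and 3.03% for males. At an unadjusted p under 0.05 there was 1 member in young males (Dtna) and 1 in older females (Dag1), and 0 in the other sex at each age. The difference of the genotype effect between the sexes over both ages gave 0 of 8 calls in limma against 0.0156% of all genes, with 0 at an unadjusted p under 0.05. Dag1 at 25 weeks had values of opposite sign in the sexes. Females had 25.2, 30.5, 28.8 and 23.3 TPM in WT and 24.2, 16.2, 20.0 and 23.8 in Col6a2-/-, a difference of -0.35 (SE 0.158, limma adjusted p 0.981). Males had 16.6, 21.2, 21.5 and 25.5 TPM in WT and 26.0, 25.5, 24.9 and 26.5 in Col6a2-/-, a difference of 0.28 (SE 0.158, limma adjusted p 0.321). All 4 Col6a2-/- females were below and all 4 Col6a2-/- males above the WT mean of their sex, but the difference between the sexes, 0.64 (SE 0.224, limma adjusted p 0.991), did not pass the test. Between males and females over all groups limma called 0 of 8 members against 3.05% of all genes, with 2 at an unadjusted p under 0.05. These were Dmd, which is X-linked, at -0.17 (SE 0.0633, limma adjusted p 0.194) and Sspn at 0.20 (SE 0.0690, limma adjusted p 0.140), each as males minus females, and without KF2 Sspn was called (5.46% of all genes called).

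Most members varied together from mouse to mouse. With group means removed, Pearson r over the 32 libraries was 0.933 for Sgcb with Sgcd, 0.846 for Sspn with Dtna, 0.822 for Sgcb with Dtna and 0.790 for Dmd with Sgcb. The lowest values were those of Utrn with Dmd (0.206) and Dtna (0.220), and Utrn reached at most 0.557, with Sgcd. Without removal of group means r was 0.371 for Sgcb with Sgcd and 0.893 for Sgcb with Sspn. These are descriptions over points that share a library and its scaling, KF2 among them. Pairs of other genes were not set beside them. The summed TPM of the 8 members was highest in replicate 2 of the 5-week Col6a2-/- females (257 TPM) and replicates 3 and 1 of the 5-week Col6a2-/- males (255 and 248 TPM). The same 3 libraries had the most genes at 1 TPM or more, at 12877, 12405 and 12610, and the part of this in the members' values was not tested.

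**Figure D5:**
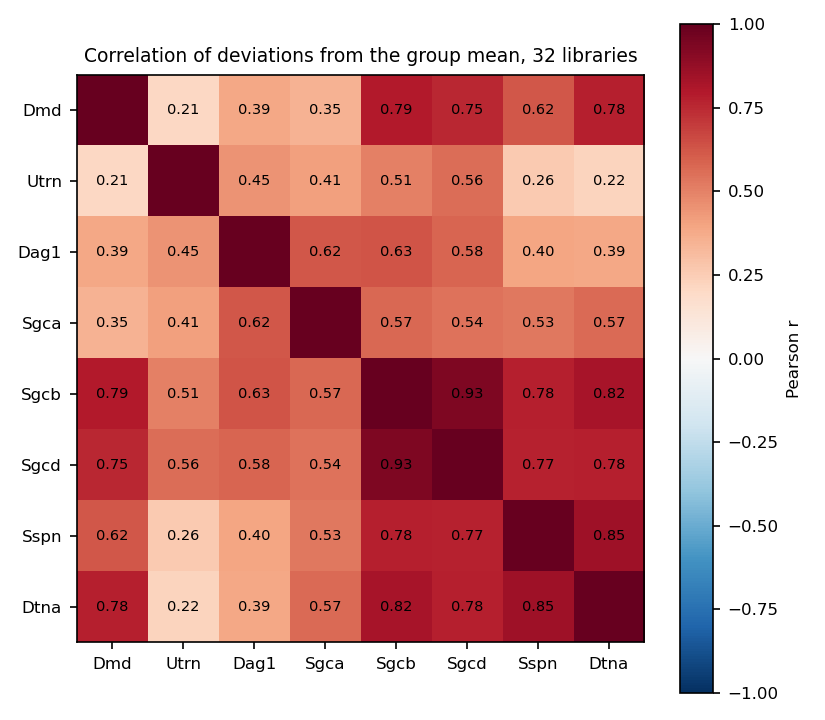
Pearson r between members (both axes) of their deviations from the group mean of log2(TPM + 1) over 32 libraries. Pairs among Dmd, Sgcb, Sgcd, Sspn and Dtna lie between 0.62 and 0.93 and pairs with Utrn between 0.21 and 0.56, while pairs with Dag1 or Sgca overlap both ranges.

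Tested genes outside the complex that were among the 3 with the highest Pearson r over the 32 libraries are given for each member as a description. Sspn was nearest to Ak3 (0.938), Trim35 (0.932) and Sypl2 (0.931), and Sgcb to Osbp (0.935), Gm9299 (0.928) and Erp44 (0.926). Dtna was nearest to Erh (0.921), Amot (0.897) and Emc3 (0.888), and Sgcd to Exoc4 (0.889), 5830417I10Rik (0.888) and Arhgap12 (0.875). For Dag1 they were Tet3 (0.882) and Fem1b (0.864), and for Sgca Ak1 (0.865), Trim35 (0.849) and Hhatl (0.843). Utrn had Trim56 (0.817), Lrrc58 (0.809) and Spin1 (0.801), and Dmd had Rnf217 (0.796), Ipo5 (0.796) and Lars (0.776), the lowest of the 8 leading values.

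Partners of the members were read through 4 lists, whose counts stand beside the shares of all tested genes called, 25.4% at 5 weeks and 4.7% at 25 weeks for genotype. With age 15.3% of all genes were called lower in WT and 28.8% in Col6a2-/-. Under median-of-ratios scaling, 1623 of all 12817 tested genes were called higher in Col6a2-/- at 5 weeks and 1479 lower. Of 14 other subunits and cytoplasmic partners 11 were tested, and 1 was called higher and 0 lower in Col6a2-/- at 5 weeks, and limma called 0 at 25 weeks (2 at an unadjusted p under 0.05). That gene was Sntb2 (β2-syntrophin) at 0.35 (SE 0.130, limma adjusted p 0.0460), and it was not called under median-of-ratios scaling, which gave 0 higher and 1 lower in this list, nor without KF2. With age the WT mice had 4 of 11 lower and 1 higher, and the Col6a2-/- mice 5 of 11 lower and 1 higher (4 and 1 without KF2). Cav3, the caveolin of muscle, fell from 28.9 ± 4.25 to 15.3 ± 0.935 TPM in WT (SD, n = 8), by -0.86 (SE 0.0778, limma adjusted p 5.71e-09), and from 32.2 ± 4.86 to 16.2 ± 2.09 TPM in Col6a2-/-, by -0.94 (SE 0.0778, limma adjusted p 4.42e-10). Nos1, the nitric oxide synthase that the complex anchors, rose from 2.95 ± 0.586 to 6.57 ± 1.64 TPM in WT (0.92, SE 0.138, limma adjusted p 1.91e-05) and from 2.54 ± 0.725 to 6.51 ± 1.84 in Col6a2-/- (1.07, SE 0.138, limma adjusted p 9.00e-07).

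Of 18 genes that build the laminin-binding sugar of α-dystroglycan 17 were tested, and 2 were called higher and 0 lower in Col6a2-/- at 5 weeks, and limma called 0 at 25 weeks (0 at an unadjusted p under 0.05). The direction of this list depended on scaling, since median-of-ratios scaling gave 0 higher and 5 lower and quantile normalization 0 and 6. Of all 12817 tested genes, median-of-ratios scaling called 1623 higher and 1479 lower, and quantile normalization 1413 higher and 1672 lower. Without KF2 limma called 0 genes of the list in either direction. With age 4 of 17 were lower in each genotype, beside the shares of all genes called lower (15.3% in WT and 28.8% in Col6a2-/-), and 1 was higher in WT and 0 in Col6a2-/-, where 3 were lower without KF2. Pomt1, an O-mannosyltransferase, differed by -0.34 (SE 0.0941, limma adjusted p 0.00982) in WT. Gmppb, which makes GDP-mannose, differed by -0.44 (SE 0.123, limma adjusted p 0.00626) in Col6a2-/-.

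Of 11 matrix ligands 10 were tested, and 5 were called higher and 0 lower in Col6a2-/- at 5 weeks and 1 and 0 at 25 weeks, against 25.4% and 4.7% of all genes called, with medians of 0.37 and 0.25 beside 0.15 and 0.08 for all genes. Without KF2 the 5-week count was 2 higher (Agrn and Bgn) and 0 lower. Bgn (biglycan, a small proteoglycan that binds the sarcoglycans) rose from 27.4 ± 8.44 to 60.2 ± 19.8 TPM at 5 weeks (1.09, SE 0.165, limma adjusted p 2.08e-05) and from 13.6 ± 4.70 to 26.3 ± 6.58 at 25 weeks (0.94, SE 0.165, limma adjusted p 0.00125). Median-of-ratios scaling gave 2 higher (Agrn and Bgn) and 1 lower (Egflam) at 5 weeks, beside 1623 higher and 1479 lower of all 12817 tested genes. With age 8 of the 10 were called lower in WT and 7 in Col6a2-/- (also without KF2), against 15.3% and 28.8% of all genes, and 0 higher. The medians of -0.69 and -0.77 stand beside -0.08 and -0.14 for all genes. Lamb1, a laminin β chain, fell from 13.1 ± 3.88 to 5.52 ± 1.04 TPM in WT (-1.07, SE 0.136, limma adjusted p 1.47e-06) and from 17.6 ± 5.88 to 4.92 ± 0.669 in Col6a2-/- (-1.59, SE 0.136, limma adjusted p 7.91e-10).

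All 10 genes of sarcolemma linkage and repair were tested, and 5 were called higher and 0 lower in Col6a2-/- at 5 weeks and 2 and 0 at 25 weeks, against 25.4% and 4.7% of all genes called. Without KF2 the 5-week count was 3 higher and 0 lower. Myof, a ferlin of membrane fusion, rose from 3.33 ± 0.881 to 5.84 ± 1.77 TPM at 5 weeks (0.64, SE 0.121, limma adjusted p 0.000296) and from 2.64 ± 0.725 to 4.28 ± 0.604 at 25 weeks (0.56, SE 0.121, limma adjusted p 0.00766). Median-of-ratios scaling gave 2 higher and 0 lower at 5 weeks, beside 1623 higher and 1479 lower of all 12817 tested genes. With age 3 of 10 were called lower in WT and 9 of 10 in Col6a2-/- (5 and 6 without KF2), against 15.3% and 28.8% of all genes, and the test of that difference between the genotypes called 0 of 10 in limma (1 at an unadjusted p under 0.05, while each age comparison had 9). Vcl, the vinculin of costameres, fell by -0.51 in WT (SE 0.0974, limma adjusted p 0.000383) and by -0.56 in Col6a2-/- (SE 0.0974, limma adjusted p 6.79e-05).

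Markers of other cells and fibre states were read with genotype too, beside 25.4% of all genes called at 5 weeks and 4.7% at 25 weeks. At 5 weeks 5 of 6 immature-fibre, 6 of 7 neuromuscular-junction, 5 of 5 macrophage and 3 of 5 fibroblast markers were called higher in Col6a2-/-, and 4 of 6 fibre markers were called lower. Without KF2 these counts were 5, 5, 4 and 2 higher and 4 lower. Of the other lists 2 of 5 endothelial and 1 of 4 smooth muscle markers were called higher, and limma called 0 of 3 Schwann cell and 0 of 3 adipocyte markers (0 at an unadjusted p under 0.05). Summed immature-fibre markers ran from 108 to 149.8 TPM in WT and from 127 to 272 in Col6a2-/-. Myh8 weighed most in that sum, with 66.8 to 153 TPM over the 32 libraries, while the median log2 change of the 6 markers was 2.11. Summed junction markers ran from 17.2 to 38.7 and from 29.2 to 60.7 TPM, and macrophage markers from 25.5 to 43.0 and from 27.6 to 106. Mymk and Mymx, from the immature-fibre markers, and Chrng, from the junction markers, were listed at 0 in 5, 4 and 10 of 32 libraries. At 25 weeks 5 of 5 macrophage, 2 of 6 immature-fibre, 3 of 5 fibroblast and 0 of 7 junction markers were called higher. Limma called 0 of 6 fibre (4 at an unadjusted p under 0.05), 0 of 5 endothelial (2), 0 of 4 smooth muscle (0), 0 of 3 Schwann cell (0) and 0 of 3 adipocyte (0) markers there. The part of these cells and states in the values of Utrn was not tested.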

How the data were processed

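RNA-seq of quadriceps muscle was deposited as 1 table per library, with coverage, FPKM and TPM per gene. The authors made these TPM, FPKM and coverage values before deposit; per the submitters' processing notes FastQC, MultiQC, Trimmomatic, HISAT2, SAMtools and StringTie were used with GRCm38 (mm10), while roles, versions, annotation and strand use are not given in the sources used here. No counts were used, so precision rests on the spread between mice within the groups of 4. Limma pooled that spread over all 32 libraries for each gene and moderated it over all tested genes. Its p-values set each difference against that spread. TPM was summed per gene ID, genes with at least 1 TPM in 4 libraries were kept (12817 of 53801), and log2(TPM + 1) was fitted with limma 3.58.1 (R 4.3.3, 8 group means, trended prior, Benjamini-Hochberg over all genes). Depth was inferred from coverage over FPKM of 1074 to 1552 genes with 1 transcript per library, and its scale was not reconciled with the sequencer named in the labels. The Utrn to Dmd ratio was compared by exact permutation within sex. The fit was tested on simulated data. Figures and tables used Python 3.11.15, numpy 2.4.6, pandas 2.3.3 and matplotlib 3.10.9. Members and lists were chosen with earlier results of these data known. Named genes are the 8 members and, per list, the called gene of smallest adjusted p in each direction, some of which are not reported here. No 2 tables were identical, and the highest correlation between libraries was 0.984. Alternatives covered the pseudocount, filter, scaling, FPKM, length and GC, limma settings, the replicate block and each library left out.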

Additional observations from a re-analysis of the deposited data

Results flagged for a closer look

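In groups of 4 mice, a value was marked where its gap to the nearest other mouse exceeded Dixon's 95% critical share of the range of the group. This held for 6 values in 72 groups, and chance gives about 1 in 20. Replicate 2 of the 5-week Col6a2-/- females had 32.6 TPM of Sgcd (next 19.6) and 21.4 TPM of Sspn (next 13.0). Replicate 3 of the 25-week Col6a2-/- females had 11.0 TPM of Sspn (next 9.67), and replicate 1 of the 25-week Col6a2-/- males had 14.6 TPM of Sspn (next 10.8). The log2 ratio of Utrn to Dmd was -1.15 in replicate 2 of the 5-week Col6a2-/- males (next -0.85) and -1.03 in replicate 1 of the 25-week Col6a2-/- females (next -1.52). For Dag1 at 25 weeks every Col6a2-/- female was below and every Col6a2-/- male above the WT mean of its sex, and the difference between the sexes was 0.64 (limma adjusted p 0.991).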

How the results depend on the processing

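The values that changed sign, or counts and ratios that moved or crossed the threshold, were as follows, and the cause was not tested. Without a filter on low values, values were 343 genes called for the 25-week genotype comparison, and 115 genes called for genotype by age. With at least 5 TPM in 4 libraries, values were 1553 genes called for the 5-week genotype comparison, and 344 genes called for the 25-week genotype comparison, and 32 genes called for genotype by age, and 1441 genes called for age in WT, and 2263 genes called for age in Col6a2-/-. With median-of-ratios scaling, values were 2 members called, Dmd -0.15, Dag1 -0.12, Sgcd -0.042, Sspn -0.10, Dtna -0.013 for the 5-week genotype comparison, and 1282 genes called, Dmd -0.095, Sgca -0.12, Sgcd -0.053, Sspn -0.0010, Dtna -0.023 for the 25-week genotype comparison, and 132 genes called, Dmd 0.058 for genotype by age, and Utrn 0.076 for age in WT. Without mitochondrial and Rn7s genes in the total, values were Dmd -0.049, Sgca -0.071, Sgcd -0.0070 for the 25-week genotype comparison, and Sgca -0.045, Sspn -0.025 for genotype by age, and 2 members called, Utrn 0.10 for age in WT. Without the 100 most abundant genes, values were Dmd -0.10, Dag1 -0.070, Sspn -0.056 for the 5-week genotype comparison, and 1084 genes called, Dmd -0.053, Sgca -0.076, Sgcd -0.012 for the 25-week genotype comparison, and 115 genes called, Dmd 0.049 for genotype by age, and Utrn 0.051 for age in WT. With quantile normalization, values were Dmd -0.076, Dag1 -0.034, Sspn -0.067 for the 5-week genotype comparison, and Dmd -0.042, Sgca -0.024 for the 25-week genotype comparison, and 163 genes called, Dmd 0.034 for genotype by age, and Utrn 0.042 for age in WT. With FPKM, values were Sgca -0.015 for the 25-week genotype comparison, and Utrn 0.010 for age in WT. With a length and GC trend removed, values were 2 members called, Dmd -0.12, Dag1 -0.14, Sspn -0.086 for the 5-week genotype comparison, and 1185 genes called, Dmd -0.096, Sgca -0.12, Sgcd -0.0049, Dtna -0.015 for the 25-week genotype comparison, and 158 genes called, Dmd 0.019 for genotype by age, and Utrn 0.091 for age in WT. With array weights, values were Dmd -0.031, Dag1 -0.017 for the 5-week genotype comparison, and 1967 genes called for the 25-week genotype comparison, and 241 genes called, Dmd 0.048 for genotype by age, and 4166 genes called for age in WT. With only the libraries compared, values were 1907 genes called for the 5-week genotype comparison, and 1177 genes called for the 25-week genotype comparison. With the replicate block, values were 1 member called, Utrn to Dmd log2 ratio 0.36 for the 5-week genotype comparison. With coverage per depth (added later), values were 1 member called, Dmd -0.019 for the 5-week genotype comparison, and Sgca -0.013 for the 25-week genotype comparison, and Dmd 0.049, Utrn 0.0039 for genotype by age. With coverage for the ratio (added later), values were Utrn to Dmd log2 ratio 0.32 for the 5-week genotype comparison, and Utrn to Dmd log2 ratio 0.27 for the 25-week genotype comparison. Without replicate 2 of the 5-week Col6a2-/- females (added later), with coverage per depth, values were Dmd -0.064, Dag1 -0.046, Sspn -0.023 for the 5-week genotype comparison. Without it and with median-of-ratios scaling, values were 1 member called, Dmd -0.15, Dag1 -0.13, Sgcd -0.071, Sspn -0.13, Dtna -0.0010 for the 5-week genotype comparison. Without it and with the trend removed, values were 2 members called, Dmd -0.10, Dag1 -0.16, Sgcd -0.023, Sspn -0.11 for the 5-week genotype comparison. Without it and with coverage for the ratio, values were Utrn to Dmd log2 ratio 0.33 for the 5-week genotype comparison. The replicate block rests only on shared numbers, since same-numbered libraries had a mean correlation of 0.031 over 112 pairs, 35 of them over 0.1, against -0.010 over 336 other pairs. With it Utrn was called at 5 weeks (limma adjusted p 0.0479) and the 5-week ratio had an adjusted exact permutation p of 0.0469. Genotype by age compares all the libraries, so a fit of only the libraries compared was no separate alternative for it. With 1 library left out, the members called were 0 to 1 at 5 weeks, 3 to 5 with age in WT and 4 to 5 in Col6a2-/-, and 0 at 25 weeks and for genotype by age. The genes called were 2207 to 4749 at 5 weeks, 270 to 983 at 25 weeks, 49 to 229 for genotype by age, 2114 to 3004 with age in WT and 3464 to 5506 in Col6a2-/-, and the ratio was 0.29 to 0.47 at 5 weeks and 0.086 to 0.27 at 25 weeks. Signs changed within these ranges: Dmd -0.029 to 0.081, Dag1 -0.0093 to 0.12, Sgca -0.055 to 0.0093, Sgcb -0.11 to 0.034, Sspn -0.013 to 0.12 for the 5-week genotype comparison, Dmd -0.0070 to 0.054, Dag1 -0.088 to 0.023, Sgca -0.035 to 0.042 for the 25-week genotype comparison, Dmd -0.059 to 0.050, Sgca -0.016 to 0.061, Sgcd -0.15 to 0.015, Sspn -0.021 to 0.12 for genotype by age, Dmd -0.015 to 0.044, Utrn -0.096 to 0.046 for age in WT, Dmd -0.038 to 0.071, Sgcd -0.011 to 0.16 for age in Col6a2-/-. Sgca was called lower with age in 9 of 32 such fits in WT and 7 in Col6a2-/-, and in 7 and 0 of the 16 other alternatives, over which it ran from -0.21 to -0.068 in WT and from -0.19 to -0.0044 in Col6a2-/-. Depth is known only as a relative measure, and 4 mice a group limit the precision.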
